A study of Mus musculus with 9 samples.

Results

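Keratins are the intermediate filament proteins of epithelial cells. A filament is built from pairs of a type II and a type I keratin, so the 2 types are made together. In the prostate, basal cells line the basement membrane and are known for Krt5 and Krt14, whereas luminal cells face the duct and are known for Krt8 and Krt18. The 8 keratins described here were chosen by name for these lineages. The 4 basal members are Krt5 (type II) and Krt14, Krt15 and Krt17 (type I), and the 4 luminal members are Krt7 and Krt8 (type II) and Krt18 and Krt19 (type I). All 8 were among the 52248 named entries of the expression table, which holds 55 keratin entries in all.

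RNA was sequenced from organoids, epithelial structures grown in gel, that came from basal cells of Mpc1 fl/fl male mouse prostates on a mixed C57BL/6N and C57BL/6J background. Mpc1 encodes a subunit of the mitochondrial pyruvate carrier. Every group carried the floxed alleles and a lentivirus expressing red fluorescent protein (RFP), and RFP-positive cells were sorted. Vehicle organoids had the RFP virus and solvent. UK5099 organoids had the same virus and 10 µM of the carrier inhibitor UK5099 for a week. Mpc1-KO organoids had a virus that also encoded Cre, the recombinase that cuts out floxed DNA, and solvent. The Cre virus and the deletion cannot be told apart in this design. The sources used here do not give the age of these mice. Each group had 3 libraries, and the labels do not say whether these were separate cultures or animals. The p-values rest on the spread between libraries within groups, pooled over all 3 groups, and this spread may be technical.

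Depth was 16.5 to 28.7 M reads per library, and each of the 8 keratins was covered by 7469 to 175712 reads in every library. Levels are given as CPM, which are counts scaled to the same library total. The targeted gene Mpc1 was at 2.36, 2.41 and 2.38 CPM in Vehicle libraries 1 to 3. The 3 UK5099 libraries held 2.04, 2.47 and 2.30 CPM. The 3 Mpc1-KO libraries held 0.522, 0.533 and 0.598 CPM and were the lowest, as labelled. The epithelial markers Epcam and Cdh1 were high in all libraries, at or above 1517 and 2075 CPM. Differences are log2 fold changes of CPM + 0.5 with their standard errors (SE), tested with limma across 12396 genes, and a gene was called at an adjusted p below 0.05. In bulk RNA, fewer cells of a type and less RNA per cell cannot be told apart.

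With UK5099, 3 of the 4 basal keratins rose and 3 of the 4 luminal keratins fell. Of all genes tested, 19.9% rose and 18.2% fell in this comparison. In Mpc1-KO organoids 1 basal keratin rose and 1 fell, and no luminal keratin was called, against 5.64% of all genes up and 5.03% down. At an unadjusted limma p below 0.05, 1 luminal keratin was lower, namely Krt7, and voom, a limma method run on recovered reads, called it (adjusted p = 0.033). No share of all genes was computed at an unadjusted p. In this comparison voom called 739 of 12396 genes as higher and 655 as lower. The plot of levels by library shows Krt5, Krt14 and Krt15 of the UK5099 group far above the same keratins in the other groups.

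**Figure D1:**
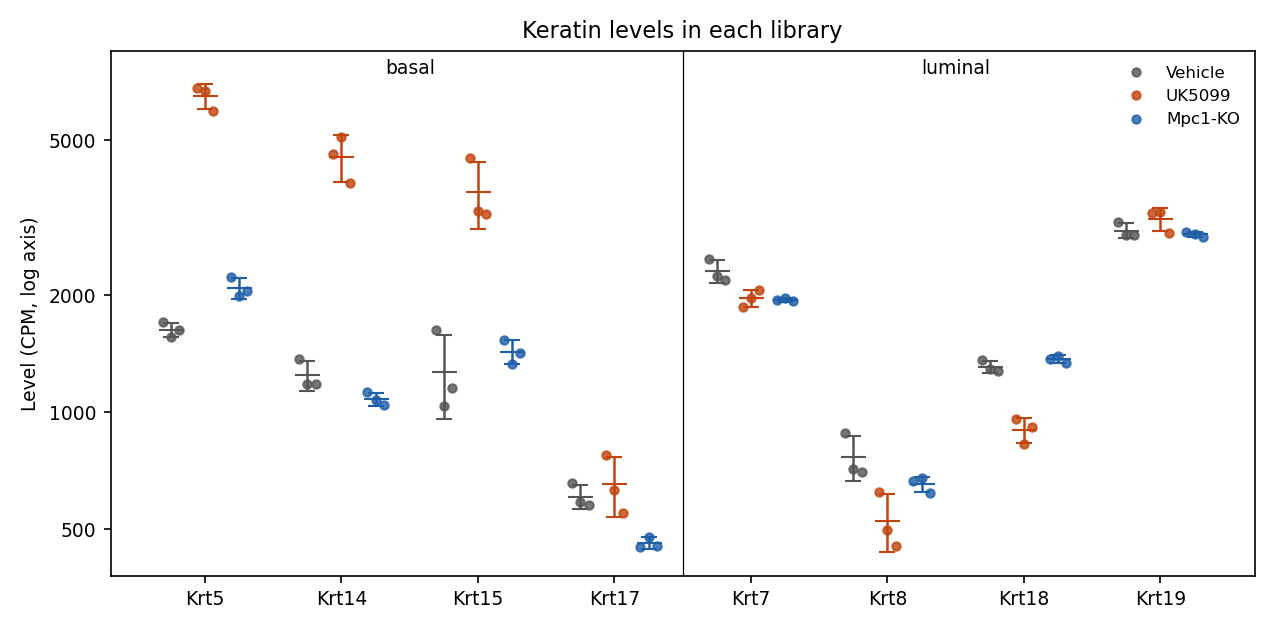
Level of each keratin in CPM (log axis) in the 9 libraries, with dots for libraries 1 to 3 from left to right and bars for the mean and SD of each group (n = 3). Krt5, Krt14 and Krt15 with UK5099 lie above every Vehicle and Mpc1-KO library, and Krt18 with UK5099 lies below them.

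Krt5, the type II keratin of basal cells, was at 1701, 1557 and 1628 CPM in Vehicle libraries and at 6833, 6690 and 5940 CPM with UK5099. The lowest UK5099 library lay well above the highest Vehicle library. The log2 fold change was 1.99 ± 0.08 (SE, n = 3 per group, limma adjusted p = 3.2e-07), or 3.98-fold.

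Krt14, the type I partner of Krt5, was at 1369, 1183 and 1181 CPM in Vehicle and at 4611, 5109 and 3885 CPM with UK5099. The groups did not overlap. It rose by 1.86 ± 0.10 on the log2 scale (n = 3 per group, limma adjusted p = 1.3e-06). Krt15, a further type I keratin of basal cells, was at 1625, 1037 and 1153 CPM in Vehicle and at 4515, 3296 and 3229 CPM with UK5099. Library 1 was the highest of its group in both, and the groups did not overlap. Krt15 rose by 1.54 ± 0.17 (n = 3 per group, limma adjusted p = 8.4e-05).

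Krt17, a type I basal keratin that is also known for its induction in wounded skin, stood apart from these 3. Its levels were 656, 589 and 576 CPM in Vehicle and 778, 632 and 551 CPM with UK5099, so that the groups overlapped. Its log2 fold change was 0.09 ± 0.11 with a 95% interval of -0.15 to 0.34 (n = 3 per group, limma adjusted p = 0.53). This interval does not reach those of Krt5 (1.82 to 2.17), Krt14 (1.63 to 2.09) or Krt15 (1.16 to 1.92).

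Among luminal keratins, Krt8 and Krt18 form the filament pair of simple epithelia. Krt8 was at 884, 713 and 704 CPM in Vehicle and at 625, 499 and 453 CPM with UK5099. All UK5099 libraries were lower than all Vehicle libraries, and library 1 was again the highest of both groups. Krt8 fell, with a log2 fold change of -0.55 ± 0.12 (n = 3 per group, limma adjusted p = 0.0054). Krt18 was at 1361, 1290 and 1273 CPM in Vehicle and at 959, 830 and 915 CPM with UK5099. It fell by nearly the same amount, at -0.54 ± 0.06 (n = 3 per group, limma adjusted p = 1.3e-04), with no overlap.

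Krt7, a type II keratin of simple epithelia, was at 2479, 2244 and 2182 CPM in Vehicle and at 1860, 1966 and 2062 CPM with UK5099. The groups did not overlap, and the fall was small, at -0.23 ± 0.07 (n = 3 per group, limma adjusted p = 0.023). Without Vehicle library 1 or 2 it did not pass (limma adjusted p of 0.079 and 0.054), with values of -0.17 and -0.25, nor did it without the filter on low genes (0.058) or with only the 6 libraries compared (0.081). Krt19, the shortest of the 8 by coding length, was at 3084, 2849 and 2861 CPM in Vehicle and at 3244, 3273 and 2885 CPM with UK5099. These groups overlapped, and the log2 fold change was 0.10 ± 0.07 with an interval of -0.06 to 0.25 (n = 3 per group, limma adjusted p = 0.32).

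**Figure D2:**
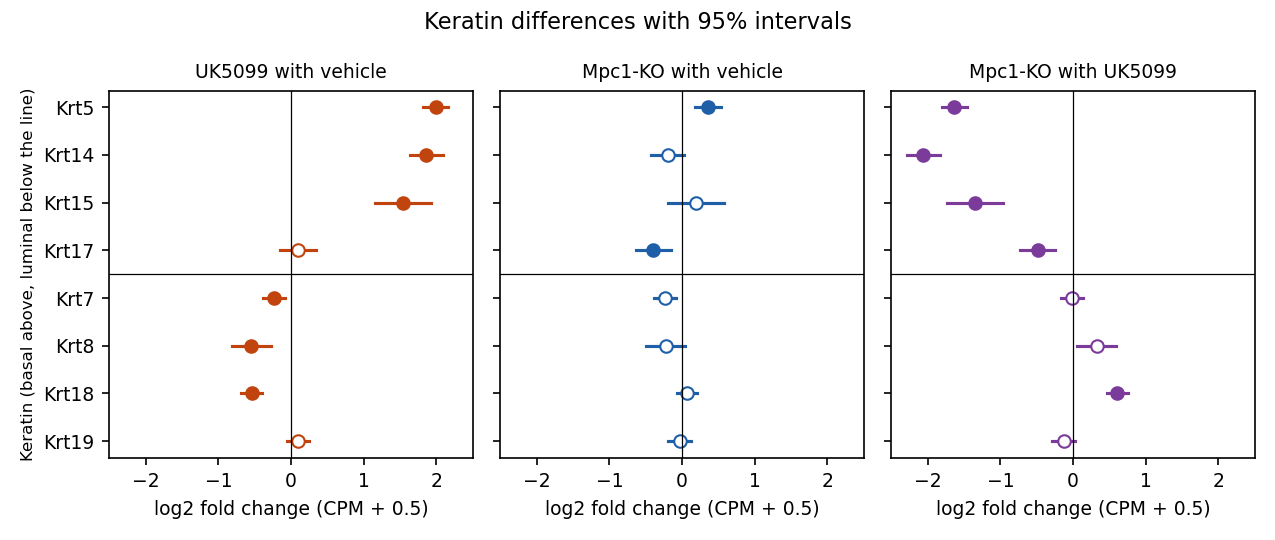
Log2 fold change of each keratin with its 95% interval in the 3 comparisons, all from 1 limma fit of 9 libraries. Filled dots passed an adjusted p below 0.05. Krt5, Krt14 and Krt15 lie between 1.54 and 1.99 with UK5099 and no keratin exceeds 0.39 in size in Mpc1-KO against Vehicle.

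In Mpc1-KO organoids the 8 keratins differed from Vehicle by 0.39 at most on the log2 scale, in either direction. Krt5 was at 2233, 1986 and 2046 CPM, above all Vehicle libraries and below all UK5099 libraries. It rose by 0.36 ± 0.08 against Vehicle (n = 3 per group, limma adjusted p = 0.021). Krt17 was at 451, 479 and 453 CPM, below all Vehicle libraries. It fell by 0.39 on the log2 scale (SE 0.11, n = 3 per group, limma adjusted p = 0.047). The Krt5 result did not pass when Vehicle library 2 or 3 was left out (adjusted p of 0.093 and 0.082). It also missed the threshold when any Mpc1-KO library was left out (0.10, 0.052 and 0.081 for libraries 1 to 3). The Krt17 call was lost without any Vehicle library (0.15, 0.11 and 0.10 for libraries 1 to 3), any Mpc1-KO library (0.16, 0.10 and 0.15) or UK5099 library 2 (0.058).

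The Krt14 libraries of Mpc1-KO, at 1127, 1072 and 1045 CPM, were all lower than those of Vehicle, but the difference did not pass (log2 fold change -0.20 ± 0.10, n = 3 per group, limma adjusted p = 0.24). Krt15 was at 1534, 1332 and 1423 CPM, inside the Vehicle range, with 0.19 ± 0.17 (limma adjusted p = 0.51). Of the luminal keratins, Krt7 was at 1945, 1969 and 1927 CPM and Krt8 at 664, 675 and 620 CPM, all below the Vehicle libraries. Neither passed, at -0.24 ± 0.07 for Krt7 (limma adjusted p = 0.051) and -0.22 ± 0.12 for Krt8 (0.26). Krt18 was at 1373, 1398 and 1340 CPM and Krt19 at 2902, 2873 and 2825 CPM, and both overlapped Vehicle. The intervals of their log2 fold changes were -0.08 to 0.21 for Krt18 and -0.19 to 0.13 for Krt19.

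Replicates of the UK5099 group were the most variable. Over genes, the median log2 SD came to 0.181 there, 0.0876 in Vehicle and 0.0608 in Mpc1-KO. When the UK5099 libraries were kept out of the fit, 5 keratins were called between Mpc1-KO and Vehicle, with Krt5 up and Krt14, Krt17, Krt7 and Krt8 down. Calls rose over all genes as well, to 4412 of 12254 (2167 up and 2245 down), from 1323 of 12396 in the main fit. Without the filter on low genes no keratin was called, since both calls of the main fit missed the threshold (adjusted p = 0.054 for Krt5 and 0.10 for Krt17).

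The direct comparison of Mpc1-KO with UK5099 tests whether drug and deletion differed, and 5 of the 8 keratins were called. All 4 basal keratins were lower in Mpc1-KO, against 23.2% of all genes, and Krt18 was higher, against 21.1%. Krt14 differed most, at -2.06 ± 0.10 (n = 3 per group, limma adjusted p = 1.2e-06), followed by Krt5 at -1.63 ± 0.08 (9.9e-07) and Krt15 at -1.35 ± 0.17 (2.1e-04). Krt17 was lower as well, at -0.49 ± 0.11 (0.0053), although it had not been called with UK5099 against Vehicle. Krt18 was higher by 0.61 ± 0.06 (7.3e-05). The Krt8 difference was 0.33 ± 0.12 (adjusted p = 0.051). It passed with the replicate number as a block (0.010), without Vehicle library 1 (0.036) and without UK5099 library 1 (0.0017). Krt7 (-0.01 ± 0.07) and Krt19 (-0.13 ± 0.07) did not pass, with adjusted p of 0.91 and 0.17, but Krt19 passed without UK5099 library 3 (-0.18, adjusted p = 0.034). UK5099 library 3 is the shallowest of the 9. This comparison shares its Mpc1-KO and UK5099 libraries with the 2 above.

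The balance of the lineages was also followed within each library. The summed CPM of the 4 basal keratins over that of the 4 luminal keratins was 0.685, 0.615 and 0.647 in Vehicle, 2.50, 2.39 and 2.15 with UK5099 and 0.776, 0.704 and 0.740 in Mpc1-KO. No groups overlapped. The ratio averaged 0.649 ± 0.035 (SD, n = 3) in Vehicle, 2.35 ± 0.18 with UK5099 and 0.740 ± 0.036 in Mpc1-KO. Per kb of coding sequence the ratio was 0.563 ± 0.034, 1.97 ± 0.15 and 0.629 ± 0.030 in the same order, so luminal keratins outweighed basal ones in Vehicle and Mpc1-KO and the reverse held with UK5099. The log2 difference from Vehicle was 1.86 with UK5099 and 0.19 in Mpc1-KO. The Mpc1-KO difference came to 0.03 when Krt5 was left out of the sums.

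Most of the shift with UK5099 lay on the basal side. The 4 basal keratins summed to 4752 ± 526 CPM in Vehicle and 15356 ± 1599 CPM with UK5099, while the 4 luminal ones summed to 7308 ± 435 and 6524 ± 191 CPM (SD, n = 3 each). In Mpc1-KO the basal sum was 5060 ± 250 CPM, within the Vehicle range, and the luminal sum was 6837 ± 110 CPM, below it.

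**Figure D3:**
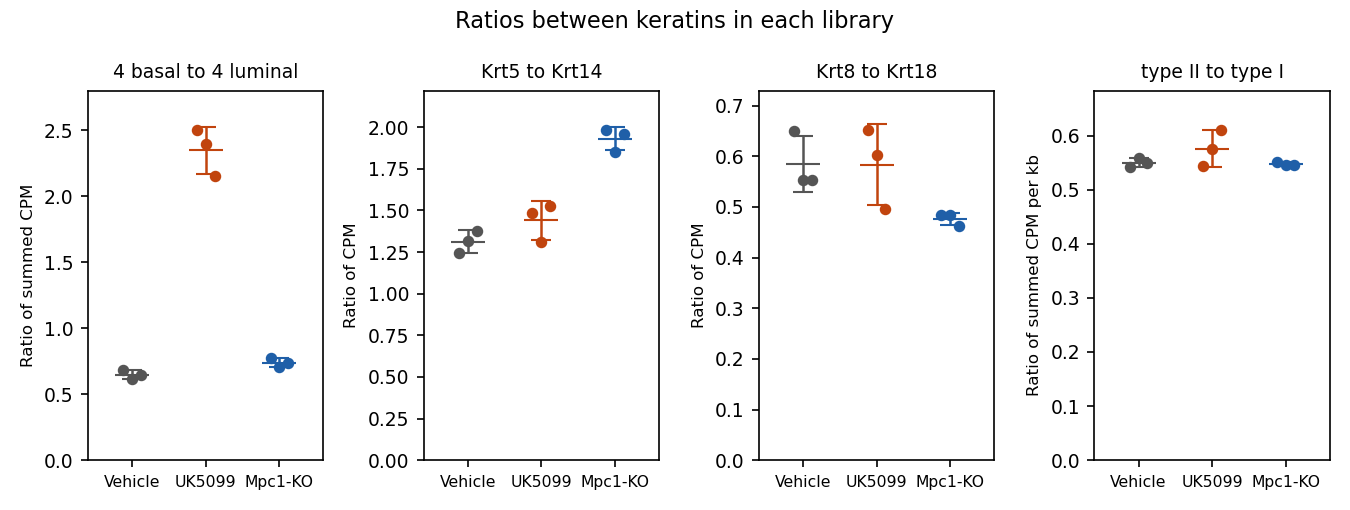
Ratios between keratins in each library (dots), with the mean and SD of each group (n = 3) and axes from 0. The basal to luminal ratio is highest with UK5099, the Krt5 to Krt14 ratio is highest in Mpc1-KO, and the type II to type I ratio overlaps between all groups.

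Ratios were also taken within the filament pairs. The Krt5 to Krt14 ratio was 1.24, 1.32 and 1.38 in Vehicle and 1.48, 1.31 and 1.53 with UK5099, which overlapped. In Mpc1-KO it was 1.98, 1.85 and 1.96, above all other libraries, with a mean of 1.93 ± 0.07 (SD, n = 3) against 1.31 ± 0.07 in Vehicle. The Krt8 to Krt18 ratio was 0.649, 0.553 and 0.553 in Vehicle and 0.652, 0.602 and 0.495 with UK5099. In Mpc1-KO it was 0.484, 0.483 and 0.462, below every other library. Both pair ratios with UK5099 thus overlapped Vehicle, while those of Mpc1-KO lay outside both other groups. These ratios are given as values, without a test.

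Levels of different genes can be compared only per length. Coding length was used here, which leaves out the untranslated parts of a transcript, from which reads also come. These parts differ in size, as Krt7 has 1371 coding and 4094 transcript bases, and Krt19 1209 and 1576. The orders and shares below hold for coding length, and those by transcript length were not computed. As CPM per kb of coding sequence, the 3 type II keratins over the 5 type I keratins gave 0.550 ± 0.009 in Vehicle, 0.576 ± 0.034 with UK5099 and 0.548 ± 0.003 in Mpc1-KO (SD, n = 3 each), and all groups overlapped. This ratio leaves out the other keratins, such as the type II gene Krt6a. The 8 held 94.7% of all keratin CPM in Vehicle and 79.4% with UK5099. The ratio therefore does not give the balance of the 2 types over all keratins. On the same scale Krt19 led in Vehicle (2425 ± 109), followed by Krt7 (1679 ± 114), Krt18 (1031 ± 37) and Krt5 (936 ± 41). Krt5, Krt15 (930 ± 228) and Krt14 (857 ± 74) overlapped with their neighbours in this order, as did Krt8 (522 ± 69) and Krt17 (467 ± 33) at its end.

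With UK5099 the order on this scale opened with Krt5 (3728 ± 276), Krt14 (3123 ± 424), Krt15 (2690 ± 529) and Krt19 (2592 ± 179), each overlapping with the next. Krt7 (1431 ± 74), Krt18 (710 ± 52), Krt17 (503 ± 88) and Krt8 (358 ± 61) followed, of which only Krt17 and Krt8 overlapped. In Mpc1-KO, Krt19 (2371 ± 32) and Krt7 (1420 ± 15) led as in Vehicle, and Krt5 (1200 ± 74) came before Krt18 (1080 ± 23), with no overlap between them. Krt18 and Krt15 (1045 ± 74) overlapped, and Krt14 (745 ± 29), Krt8 (444 ± 20) and Krt17 (355 ± 12) ended the order without overlap.

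**Figure D4:**
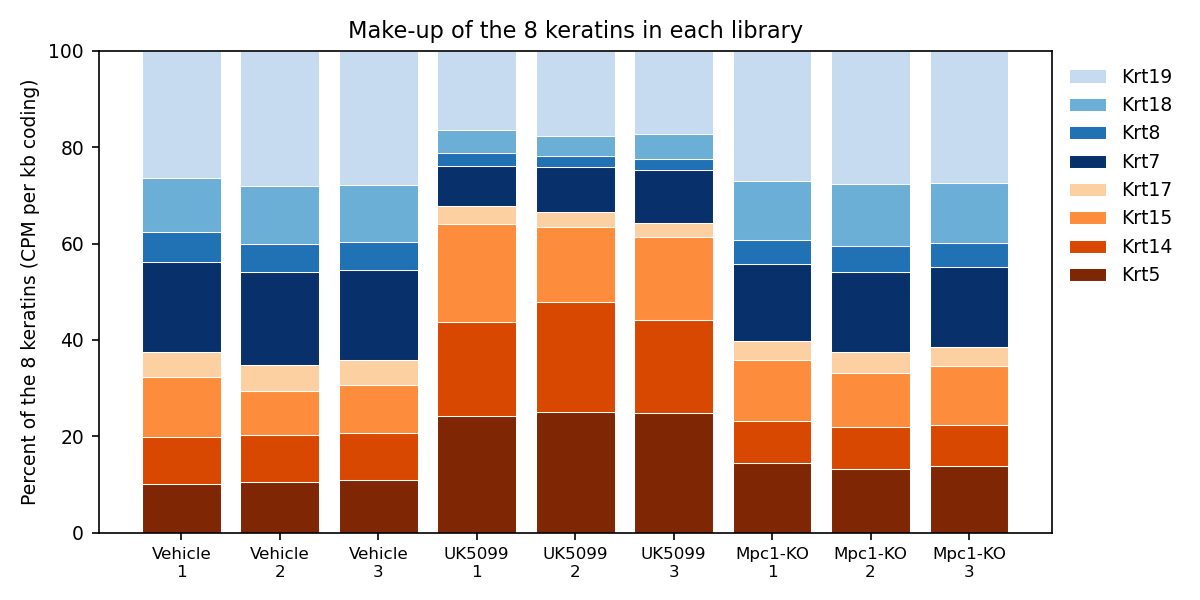
Share of each keratin in the sum of the 8 per coding length (percent, stacked) in the 9 libraries, with basal keratins in orange and luminal keratins in blue. Krt5 takes 24.2% to 25.0% with UK5099 and 10.1% to 11.0% in Vehicle, and Krt19 takes 16.5% to 17.6% and 26.4% to 28.0%.

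As a share of the 8 keratins per coding length, Krt5 made up 10.6% ± 0.5 in Vehicle, 24.6% ± 0.4 with UK5099 and 13.9% ± 0.6 in Mpc1-KO (SD, n = 3 each). Krt19 made up 27.5% ± 0.9, 17.1% ± 0.5 and 27.4% ± 0.3, so that its share was lower with UK5099 although its level did not pass the test. All keratin entries together took 1.27% ± 0.10 of the CPM in Vehicle, 2.76% ± 0.23 with UK5099 and 1.26% ± 0.04 in Mpc1-KO. The 8 keratins held 94.7% of that keratin total in Vehicle and 79.4% with UK5099. The most abundant of the other keratins was Krt6a, a type II keratin known for its induction in wounded skin, which was at 316.5 ± 8.1 CPM in Vehicle and 2481 ± 376 CPM with UK5099, with Krt4, Krt13 and Krt16 higher too (log2 fold changes of 2.79, 5.32 and 3.84, limma adjusted p of 1.5e-05, 6.9e-07 and 1.3e-06). Among the 14 other keratins tested, 12 rose and 1 fell with UK5099, against 19.9% and 18.2% of all genes. In Mpc1-KO 2 rose and none fell, against 5.64% and 5.03% (3 up and 3 down at an unadjusted limma p below 0.05, 1 up and none down by voom). These shares are of adjusted limma calls, and none was computed at an unadjusted p.

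Keratin genes arose by duplication and share stretches of sequence, and reads of 50 bases cannot be assigned within such stretches. Of all 50-base windows in the GENCODE M21 transcript, 26.9% for Krt8, 14.4% for Krt14, 8.52% for Krt5 and 3.99% for Krt17 were identical to a window of another gene. The share was below 1% for Krt15 and Krt18, and Krt7 and Krt19 had none. Krt5 shared most of these windows with Krt6a. An example is shown for each of the 2 members with most shared windows, from coding bases 348 to 397 of Krt14 (also in Krt16) and 510 to 559 of Krt8 (also in the pseudogene Krt8-ps).
Krt14 and Krt16: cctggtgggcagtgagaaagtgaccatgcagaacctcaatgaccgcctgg
Krt8 and Krt8-ps: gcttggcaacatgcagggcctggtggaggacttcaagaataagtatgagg

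The sources used here do not say how the authors' counting treated reads from such windows, so the levels of Krt5, Krt14 and Krt8 are less certain than those of Krt7, Krt18 and Krt19. Krt8-ps itself was listed at 0.322 to 1.08 CPM, far below Krt8. Krt6a and Krt16 rose in the same comparison as Krt5 and Krt14. The levels with UK5099 were 2260 to 2915 CPM for Krt6a beside 5940 to 6833 CPM for Krt5, and 259 to 486 CPM for Krt16 beside 3885 to 5109 CPM for Krt14. How many shared reads went to which gene was not tested.

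The 8 genes lie in the keratin clusters of chromosomes 15 (Krt5, Krt7, Krt8 and Krt18) and 11 (Krt14, Krt15, Krt17 and Krt19). Neighbours by position did not form the groups that moved together in every case. Krt8 and Krt18 are adjacent and both fell with UK5099, whereas Krt15 and Krt19 are adjacent and only Krt15 passed. The 250 bases before the start site are shown for Krt5, the keratin with the largest change of the 8 with UK5099, and for the adjacent Krt8 and Krt18 (RefSeq, GRCm38.p6). They are chr15:101712906-101713155 on the minus strand, chr15:102004343-102004592 on the minus strand and chr15:102027966-102028215 on the plus strand. Capitals mark a p53 family motif in Krt5 and a GCCNNNGGC match in Krt18.
Krt5: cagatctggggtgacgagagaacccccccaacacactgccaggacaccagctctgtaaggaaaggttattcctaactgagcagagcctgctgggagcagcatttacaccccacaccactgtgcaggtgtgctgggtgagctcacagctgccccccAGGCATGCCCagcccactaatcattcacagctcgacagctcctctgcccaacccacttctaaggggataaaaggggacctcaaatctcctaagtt
Krt8: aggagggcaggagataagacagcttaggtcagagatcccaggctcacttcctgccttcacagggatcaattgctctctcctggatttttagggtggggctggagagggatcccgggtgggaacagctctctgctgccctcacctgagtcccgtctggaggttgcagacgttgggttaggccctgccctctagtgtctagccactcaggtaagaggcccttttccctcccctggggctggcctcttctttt
Krt18: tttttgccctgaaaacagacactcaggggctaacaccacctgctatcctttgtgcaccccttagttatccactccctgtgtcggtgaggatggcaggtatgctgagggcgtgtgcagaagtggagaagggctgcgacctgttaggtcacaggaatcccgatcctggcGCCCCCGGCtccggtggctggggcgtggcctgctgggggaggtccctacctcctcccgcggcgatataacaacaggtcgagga

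In the Krt5 window the p53 family motif, which is only a part of the full element that Trp63 binds, lies 95 to 86 bases before the start. It occurs in 7.13% of 32851 promoter windows of the same length. The GCCNNNGGC match of Krt18, the core of an AP-2 element, lies 83 to 75 bases before the start, and such matches occur in 13.7% of windows. The Krt8 window held no match. Searches on both strands also covered TATAAA (12.4% of windows), GGGCGG (32.7%) and TGANTCA (6.75%), and none of these was in the 3 windows. The windows of Krt14 and Krt7 were searched as well and are not printed. That of Krt14, which also rose with UK5099, held no match, the p53 family motif included. Its start site did not match a GENCODE M21 transcript of Krt14. The Krt7 window held GCCNNNGGC and GGGCGG matches. The GCCNNNGGC and GGGCGG motifs can overlap. A match is a description of the letters and not a binding site.

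Genes that accompany the keratins were then counted by list. The lists name basal and luminal markers, regulators of keratin genes and genes grouped as linkers of keratin filaments. The linker list was drawn up by name, and whether each member anchors filaments was not tested. Some genes are in several lists, such as Trp63 and Sox15 (basal markers and regulators). The luminal and linker lists share a gene that fell with UK5099. The shares of all genes beside these counts are of limma calls at an adjusted p below 0.05. They are not a background for the counts at an unadjusted p, for which no share was computed. Of the 12396 genes, voom called 2515 up and 2281 down with UK5099. In Mpc1-KO against Vehicle it called 739 up and 655 down. With UK5099, 9 of 17 tested basal companions rose and 6 fell, against 19.9% and 18.2% of all genes, with a median log2 fold change of 0.33 beside 0.04 for all genes. The basal galectin gene Lgals7 rose from 142 ± 15.0 to 421 ± 6.6 CPM (SD, n = 3 each), a log2 fold change of 1.57 (limma adjusted p = 6.9e-07). Sox15 and Trp63, transcription factors of basal and stratified epithelium, rose by 1.16 and 0.78 (1.0e-05 and 2.4e-05). The integrin subunit genes Itga3 and Itgb4 fell (-0.59 and -0.23, adjusted p of 8.4e-05 and 0.016), while Itga6, whose product pairs with that of Itgb4, and the hemidesmosome gene Col17a1 rose (0.53 and 0.55, adjusted p of 1.1e-04 and 0.0051).

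In Mpc1-KO, 1 of the 17 basal companions rose and 5 fell, against 5.64% and 5.03% of all genes. At an unadjusted p below 0.05 there were 5 up and 6 down, and voom called 2 up and 4 down. Itgb4 fell by 0.27 on the log2 scale (limma adjusted p = 0.025), while the growth factor receptor gene Egfr rose by 0.24 (0.022). Luminal companions were split with UK5099, with 6 of 18 up and 6 down (19.9% and 18.2% of all genes) and a median of -0.11. The 4 called with the smallest p all fell. Cp, the ceruloplasmin gene, went from 1067 ± 20.4 to 275 ± 16.6 CPM and fell by 1.96 (1.0e-07). Prom1, a membrane protein of luminal progenitors, fell by 1.75 (4.3e-07), and Cldn3, a claudin of tight junctions, fell by 1.03 (6.4e-06). The protease gene St14 fell by 0.76 (4.6e-05). Of the 6 that rose, Psca, which encodes a surface antigen, had the largest change of the list (2.54, adjusted p = 2.8e-04), and the tetraspanin gene Cd9 rose by 0.45 (5.3e-05). In Mpc1-KO, 1 of 18 rose and 1 fell, which is near the 5.64% and 5.03% of all genes. Voom called 2 up and 1 down. At an unadjusted p there were 5 up and 2 down, with no share of all genes to set beside them. The 2 called by the main limma fit were Ltf, the lactoferrin gene (1.11, adjusted p = 5.4e-04), and Cp (-0.41, adjusted p = 0.0056).

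Of 16 regulators of keratin genes, 8 rose and none fell with UK5099 (median 0.44), against 19.9% and 18.2% of all genes, or 10 and 0 at an unadjusted p below 0.05 and 8 and 0 by voom. Besides Sox15 and Trp63, Grhl1, a grainyhead factor of epidermis, rose by 1.05 (limma adjusted p = 4.8e-05) and the AP-2 gene Tfap2c by 0.66 (8.6e-05). In Mpc1-KO, 3 rose and none fell (median 0.29), against 5.64% and 5.03% of all genes. Voom called 3 up and 0 down. At an unadjusted p there were 9 up and 0 down, again with no share of all genes. The 3 called by the main limma fit were Sp1 (0.40, adjusted p = 0.011), Tfap2c (0.39, 0.012) and Tfap2a (0.40, 0.019). Of 13 tested linkers, 7 rose and 2 fell with UK5099 (median 0.30), against 19.9% and 18.2% of all genes. The desmosome gene Jup rose by 0.64 (1.5e-05) and the plakin genes Evpl and Ppl by 2.10 and 0.91 (2.3e-05 and 1.4e-04), while the plakophilin gene Pkp2 fell by 1.21 (2.2e-05). In Mpc1-KO 1 of the 13 was called, against 5.64% of all genes up, namely Pnn, which encodes a protein of desmosomes and nuclear speckles, at 0.36 (0.022).

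**Figure D5:**
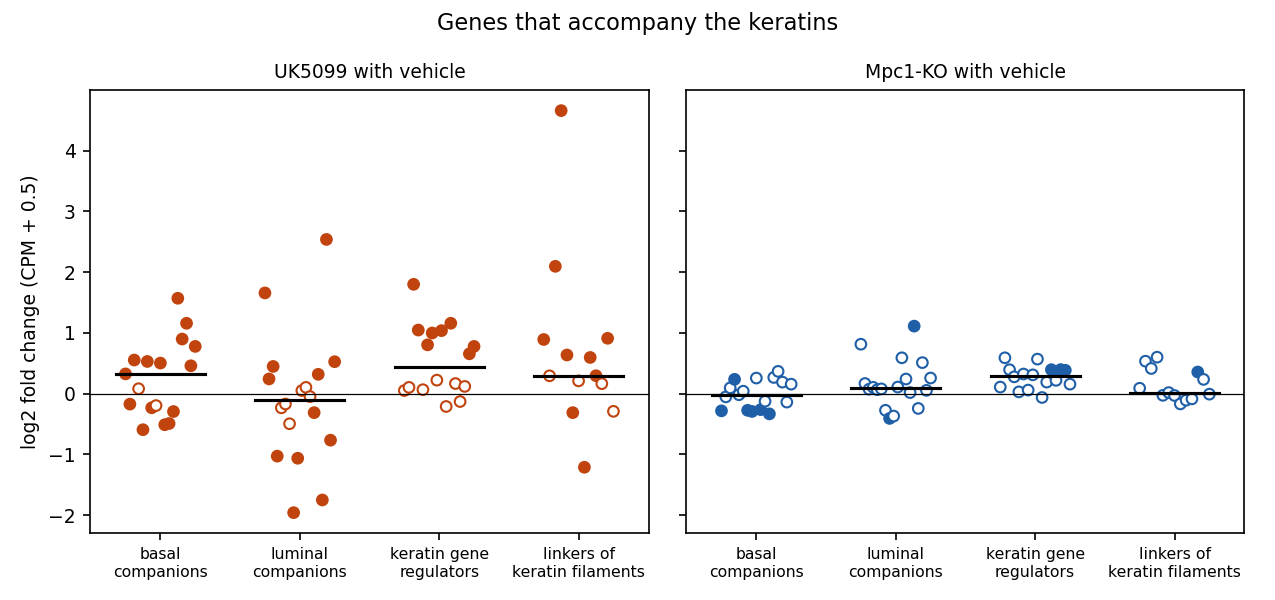
Log2 fold change of each tested gene of the 4 lists with UK5099 and in Mpc1-KO against Vehicle. Filled dots passed an adjusted p below 0.05, and black lines are medians, which run from -0.11 to 0.44 with UK5099 and from -0.02 to 0.29 in Mpc1-KO.

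Markers of other cells also differed between the groups. The 12 mesenchymal markers summed to 6756 to 7941 CPM in Vehicle, 280 to 613 CPM with UK5099 and 2738 to 3602 CPM in Mpc1-KO. Fn1, the fibronectin gene, made up most of this sum, at 7116 ± 568 CPM in Vehicle, while Col1a2 was at 0 in all libraries. Of the 6 mesenchymal markers tested, 5 fell and 1 rose with UK5099, against 18.2% and 19.9% of all genes. In Mpc1-KO 3 were called as lower and none as higher, against 5.03% and 5.64%. Epcam was at 3103 ± 142 CPM in Vehicle, 1627 ± 133 CPM with UK5099 and 3045 ± 57 CPM in Mpc1-KO (SD, n = 3 each). The 5 urothelial markers, of which Krt20 was the highest, summed to 44.2 to 49.4, 155 to 318 and 45.9 to 51.9 CPM in the same order. The 8 immune markers summed to 37.2 to 50.1, 12.4 to 30.0 and 46.9 to 53.7 CPM, with Adgre1 at 0. Endothelial and neuroendocrine markers summed to at most 4.07 and 3.13 CPM in any library. The part of these differences in the keratin results was not tested.

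The genes whose profile over the 9 libraries was most like that of a keratin were found by the root mean square difference of log2 levels centred on their means, among 9909 genes. This difference is not scaled, so genes that change little score as near to each other, and strongly changing genes score as farther apart. It therefore largely restates the sizes of change given above. Each nearest gene is the smallest of 9909 values, and no test was made. Krt5 was followed most closely by Egr3 (0.092), Il33 (0.111) and Ptgs1 (0.135), which encode a zinc finger factor, a cytokine and a cyclooxygenase. The genes nearest to Krt14 were Slitrk6 (0.122), the desmosomal cadherin gene Dsg3 (0.143) and the zinc finger gene Bcl11b (0.147). Krt15 had looser matches, led by Sprr2a3 (0.165), Slc25a12 (0.166) and Camk1d (0.172). Krt17 was matched closely by Ehd2 (0.032), Smarcb1 (0.034) and Riox2 (0.049).

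For luminal keratins the nearest profiles were those of Tmc8, Irs1 and Optn for Krt7 (0.050 to 0.057), Nisch, Adcy6 and Zfp422 for Krt8 (0.072 to 0.080), Rnf19a, Pex26 and Cxxc5 for Krt18 (0.038 to 0.049) and Psmd2, Timm13 and Tgfbr2 for Krt19 (0.029 to 0.030). Among the keratins themselves, Krt7 and Krt19, which both changed little, had the smallest difference (0.157), followed by Krt8 and Krt18 (0.178). Krt17 was nearer to Krt19 (0.194) than to its basal fellow Krt15 (0.611).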

How the data were processed

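RNA-seq of 9 libraries, 3 per group by the labels, was used. Per the labels and the study's methods, libraries were stranded and poly(A)-enriched, and single-end reads of 50 bases were mapped with STAR 2.7.9a and counted per gene on GRCm39. Partek Flow gave the deposited CPM, to which the authors added 0.0001. The authors tested differences with DESeq2.

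The 0.0001 was subtracted. Depth (16.5 to 28.7 M reads, median 23.9) was recovered from the step of low values, of which 99.90% to 99.94% lay within 0.02 of a whole read. Counting error is therefore small for the keratins, and the number of libraries limits precision. An unnamed entry (up to 0.000715% of the CPM) was not used, and 24 symbols had been turned into dates.

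The 12396 genes whose mean reached 1 CPM were tested two-sided with limma 3.58.1 (R 4.3.3) on the scale log2(CPM + 0.5) (trended eBayes, 1 fit of 9 libraries, 6 residual degrees of freedom) with Benjamini-Hochberg adjustment over all of them, called below 0.05. The procedure was run on simulated data in which all groups had the same spread. That run does not cover the unequal spread of these groups. The fold change of low genes is understated on this scale. Ratios were computed per library without a test. Coding lengths and shared windows came from GENCODE M21 (GRCm38), and promoters and gene order from RefSeq (GRCm38.p6), of which 5 of the 8 keratins matched a promoter entry.

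The members and lists were chosen with earlier results of these data known. Text names the 8 keratins, Mpc1, the 4 other keratins with the highest mean, up to 4 (UK5099) and 3 (Mpc1-KO) called members with the smallest p of each companion list, and the 3 genes nearest to each keratin with a mean of at least 5 CPM, without predicted genes, clones, pseudogenes or keratins. Psca, Cd9, Itga6 and Col17a1 were named after their values were seen. Some items that the rule names are not reported here. Mpc2, which it also names, was at 9.87 to 16.8 CPM.

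Same-numbered Vehicle and UK5099 libraries deviated together from their group means (r = 0.445, 0.144 and 0.309). Differently numbered libraries could also correlate (r = 0.264 for Vehicle 2 and UK5099 3, 0.134 for Vehicle 3 and UK5099 2). For Mpc1-KO, r was -0.0384, -0.0192 and 0.0901 with Vehicle libraries of the same number. It was -0.122, -0.0802 and 0.117 with those of UK5099. Vehicle 2 thus correlated more with UK5099 3 than with UK5099 2, and these values do not settle whether the numbers mark pairs. The main fit took the libraries as unpaired. Alternatives were other pseudocounts, filters and scalings, no trend, only the 6 libraries compared, a replicate block, voom on recovered reads (added after seeing the data) and each library left out.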

Additional observations from a re-analysis of the deposited data

How the results depend on the processing

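The directions and calls of Krt5, Krt14, Krt15, Krt8 and Krt18 with UK5099, and of Krt5, Krt14, Krt15, Krt17 and Krt18 between Mpc1-KO and UK5099, held in all 20 alternatives. Of 480 values for single keratins, 443 kept direction and call, 19 lost the call, 13 gained it and 5 changed sign, none of them called. With libraries left out, keratins called ran from 5 to 6 (UK5099 with Vehicle), 0 to 3 (Mpc1-KO with Vehicle) and 5 to 6 (Mpc1-KO with UK5099), and genes called from 3432 to 5673, 310 to 3594 and 4008 to 6194. The main counts of genes were 4721, 1323 and 5498. For Mpc1-KO with Vehicle, keratins called were 0 without the filter, 1 without the trend and 5 in the 6 libraries compared, and genes called were 761 without the filter and 4412 in the 6 libraries. The replicate block gave 6, 2 and 6 keratins and 4922, 1399 and 5765 genes, and beside Krt8 between Mpc1-KO and UK5099 it changed no call of a keratin.

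Sign changes were Krt17 with UK5099 (-0.039 to 0.21 with libraries left out), Krt19 in Mpc1-KO against Vehicle (-0.051 to 0.0057) and Krt7 between Mpc1-KO and UK5099 (-0.049 to 0.026 with libraries left out, 0.034 with median-of-ratios and 0.034 with TMM scaling). These scalings called Krt8 as higher in Mpc1-KO than with UK5099 (adjusted p = 0.012 and 0.015).

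The log2 difference of the basal to luminal ratio with UK5099 (1.86) was 1.68 from mean log2 levels, 2.48 for Krt5 and Krt14 over Krt8 and Krt18, 1.67 without Krt5, 1.99 without Krt17 and 2.06 without Krt19. In Mpc1-KO against Vehicle (0.19) it was 0.10 from mean log2 levels, 0.032 without Krt5 and 0.28 without Krt14. Between Mpc1-KO and UK5099 (-1.67) it was -2.30 for Krt5 and Krt14 over Krt8 and Krt18, -1.51 without Krt14, -1.56 without Krt18 and -1.83 without Krt19. Left-out libraries gave 1.81 to 1.92, 0.15 to 0.23 and -1.73 to -1.62. The planned count tests were not run, since the deposited values are not counts. In their place voom called 3 keratins in Mpc1-KO against Vehicle. The cause of these shifts was not tested.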

Other observations

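Library 1 carried more keratin than its fellows within the control group. In Vehicle, library 1 was the highest of the 3 for 8 of the 8 keratins, by 0.38 log2 units over the group mean for Krt15, 0.21 for Krt8 and 0.14 for Krt14. The sum of the 8 was 13160 CPM there and 11462 and 11559 CPM in Vehicle libraries 2 and 3. With UK5099, library 1 was the highest for 5 keratins, with Krt15 at 0.31, Krt17 at 0.27 and Krt8 at 0.26 over the mean, and library 3 was the lowest for 6. No share of all genes was computed for these counts. The median-of-ratios factor, which follows the typical gene, was 1.02 in Vehicle library 1, 0.985 in library 2 and 0.990 in library 3. With UK5099 this factor was 1.10, 0.995 and 0.982 in libraries 1 to 3. The part of these library-wide shifts in the keratin values was not tested. In Mpc1-KO the libraries lay closer together, and the farthest value was 0.10 over the mean, for Krt15 in library 1. The coefficient of variation was smaller in Mpc1-KO than in Vehicle for every one of the 8 except Krt5, for example 1.08% against 6.81% for Krt7. Over the tested genes the median log2 SD was smaller in Mpc1-KO as well (0.0608 against 0.0876 in Vehicle).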
